A study of Saccharomyces cerevisiae with 32 samples.

Results

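BED and CQC are 2 of 8 natural isolates of budding yeast (Saccharomyces cerevisiae) in a study that sequenced mRNA and footprints, the mRNA pieces that ribosomes shield from RNase, in each isolate. Every isolate is labelled wild type and was grown in SC (synthetic complete) medium, a defined medium supplied with amino acids and bases. The labels name no other strain feature, no carbon source, and no cell density at harvest. Cells were caught on a filter and broken mechanically; footprints came from RNase I digestion followed by hybridisation removal of ribosomal RNA, and mRNA libraries from a strand-preserving kit. BED and CQC hold 8 of the 32 libraries, with 2 mRNA and 2 footprint libraries each, and all differences below are BED minus CQC on the log2 scale.

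The pair was chosen by the distance between mRNA profiles, as the isolates whose measured mRNA levels lay furthest apart. Over 6269 genes, the median absolute log2 difference between BED and CQC mRNA was 1.04, the largest of 28 pairs of isolates, while by correlation across genes the pair ranked 2 after AMH with CQC (r = 0.710 for BED with CQC and 0.702 for AMH with CQC). mRNA values were thus used for the choice. They are given as a description with no p-value, and counts of genes past the threshold in mRNA, in both assays or in the ratio of the assays describe the data and support no statement. Footprints come from separate libraries that the choice did not use, and they carry the tests here. In footprints the pair was also the most distant of the 28 by both measures (median absolute log2 difference 1.10, r = 0.584 over 5347 genes).

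Yeast given ample glucose ferments it to ethanol even in air. In that state, glycolytic enzymes and ribosomal proteins take a large share of the cell's translation, while genes for respiration, gluconeogenesis and other carbon sources are kept low by glucose repression. When glucose runs out, cells take up the ethanol and acetate they made and turn to respiration, raise enzymes of the glyoxylate cycle and of storage carbohydrate, and build up stress proteins. Growth phase and genetic background can each set these genes, and with 1 growth condition per isolate the 2 cannot be told apart here.

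The mRNA libraries held 7877545 and 10628892 reads on open reading frames in BED, against 7005423 and 6181057 in CQC. The footprint libraries held 759377 and 1086744 reads in BED, against 249004 and 275549 in CQC, so low footprint values in CQC rest on few reads. Levels are given in CPM, the read count scaled to a common library total by TMM. CPM are relative levels within an assay and not amounts per cell. The TMM factors also set them apart from plain shares of reads. One read is worth 4.02 CPM and 3.39 CPM in the CQC footprint libraries. Replicate libraries correlated across genes at r = 0.997 in BED and 0.992 in CQC for mRNA, and at 0.989 in BED and 0.973 in CQC for footprints. Mitochondrial open reading frames took 1.61% and 1.72% of mRNA reads in BED, against 21.3% and 19.2% in CQC, and 1.17% to 11.9% in the 12 libraries of the other 6 isolates. Whether replicates came from separate cultures is not in the labels, and p-values measure only the spread between these libraries, which may be technical.

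Footprints differed at 2858 genes. A gene was called when edgeR's quasi-likelihood test gave a Benjamini-Hochberg adjusted p under 0.05 over all genes tested. In footprints, 2858 of 5347 genes were called (53.5%), 1468 higher in BED (27.5%) and 1390 lower (26%). These shares over all genes, 27.5% and 26%, are the background against which each count of list members in footprints below is to be read. Genes named from a list were mostly picked for the largest footprint differences in it, so they are not typical members. As a description of the values that chose the pair, 4694 of 6269 genes passed the same threshold in mRNA (74.9%), 2354 above CQC in BED (37.5%) and 2340 below it (37.3%). The difference reached at least 1 log2 unit for 3345 called genes in mRNA and 2533 in footprints, and at least 3 log2 units for 831 in mRNA and 592 in footprints. ACT1, which encodes actin and is often used as a constant reference, had mRNA levels of 1886 and 1879.7 CPM in BED, against 73.2 and 82.5 CPM in CQC. ACT1 footprints were at 3970.0 and 4385 CPM in BED, against 550.3 and 428 CPM in CQC. Both BED libraries lay far above both CQC libraries in each assay (footprint log2 difference 3.10 ± 0.21, edgeR adjusted p = 2.84e-12).

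Genes called in both assays mostly had the same direction in each. Of 5337 genes tested in both, 2570 (48.2%) were called in the same direction in mRNA and in footprints and 57 (1.07%) in opposite directions. A further 1606 genes were called in mRNA alone, 231 in footprints alone and 873 in neither. Over the 888 genes with at least 100 reads per library, footprint differences followed mRNA differences with a slope of 0.899, and their spread was 2.62 log2 units in footprints and 2.80 in mRNA. These are descriptions across genes, which are not independent replicates.

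**Figure D1:**
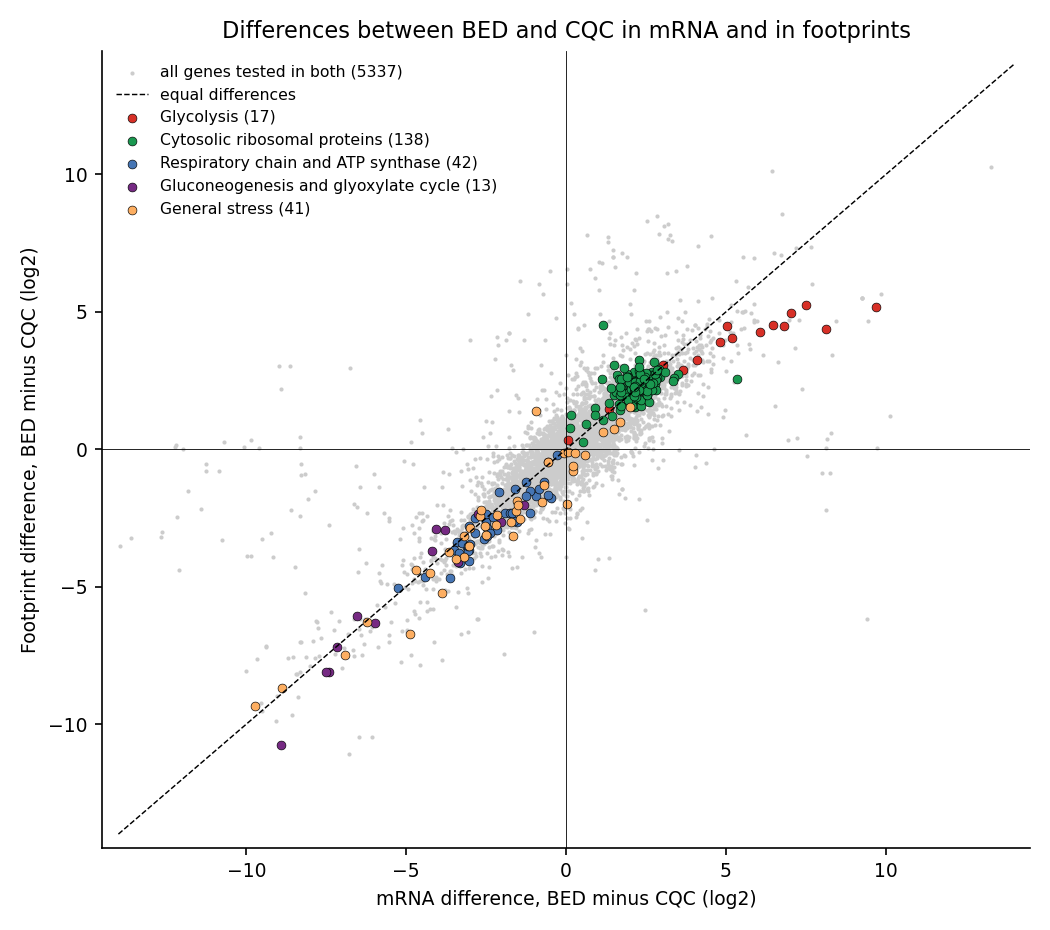
Each grey point is 1 of the 5337 genes tested in both assays, placed by its mRNA difference (x axis) and footprint difference (y axis), BED minus CQC on the log2 scale; coloured points are members of named gene lists and the dashed line marks equal differences. Most glycolytic genes lie in the upper right, most genes of respiration, gluconeogenesis and stress in the lower left, and 2570 genes were called in the same direction on both axes.

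The pair stood at the 2 ends of the 8 isolates for some genes and lists. Among the 2858 genes called in footprints, 336 had their highest isolate mean in BED and their lowest in CQC, and 264 the reverse, together 21.0% of the called genes. Calling favours genes on which the pair lies far apart. Over all 5347 genes tested in footprints, 625 (11.7%) had the pair at the 2 ends. For whole lists of genes, the summed share of footprint reads was above all 6 other isolates in BED and below all 6 in CQC for glycolysis, the steps to ethanol, purine synthesis and protein folding in the endoplasmic reticulum. It was below all 6 in BED and above all 6 in CQC for the respiratory chain, the citrate cycle, gluconeogenesis, peroxisomal fatty acid oxidation and nitrogen catabolite repressed genes. These were 4 and 5 of 52 lists.

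**Figure D2:**
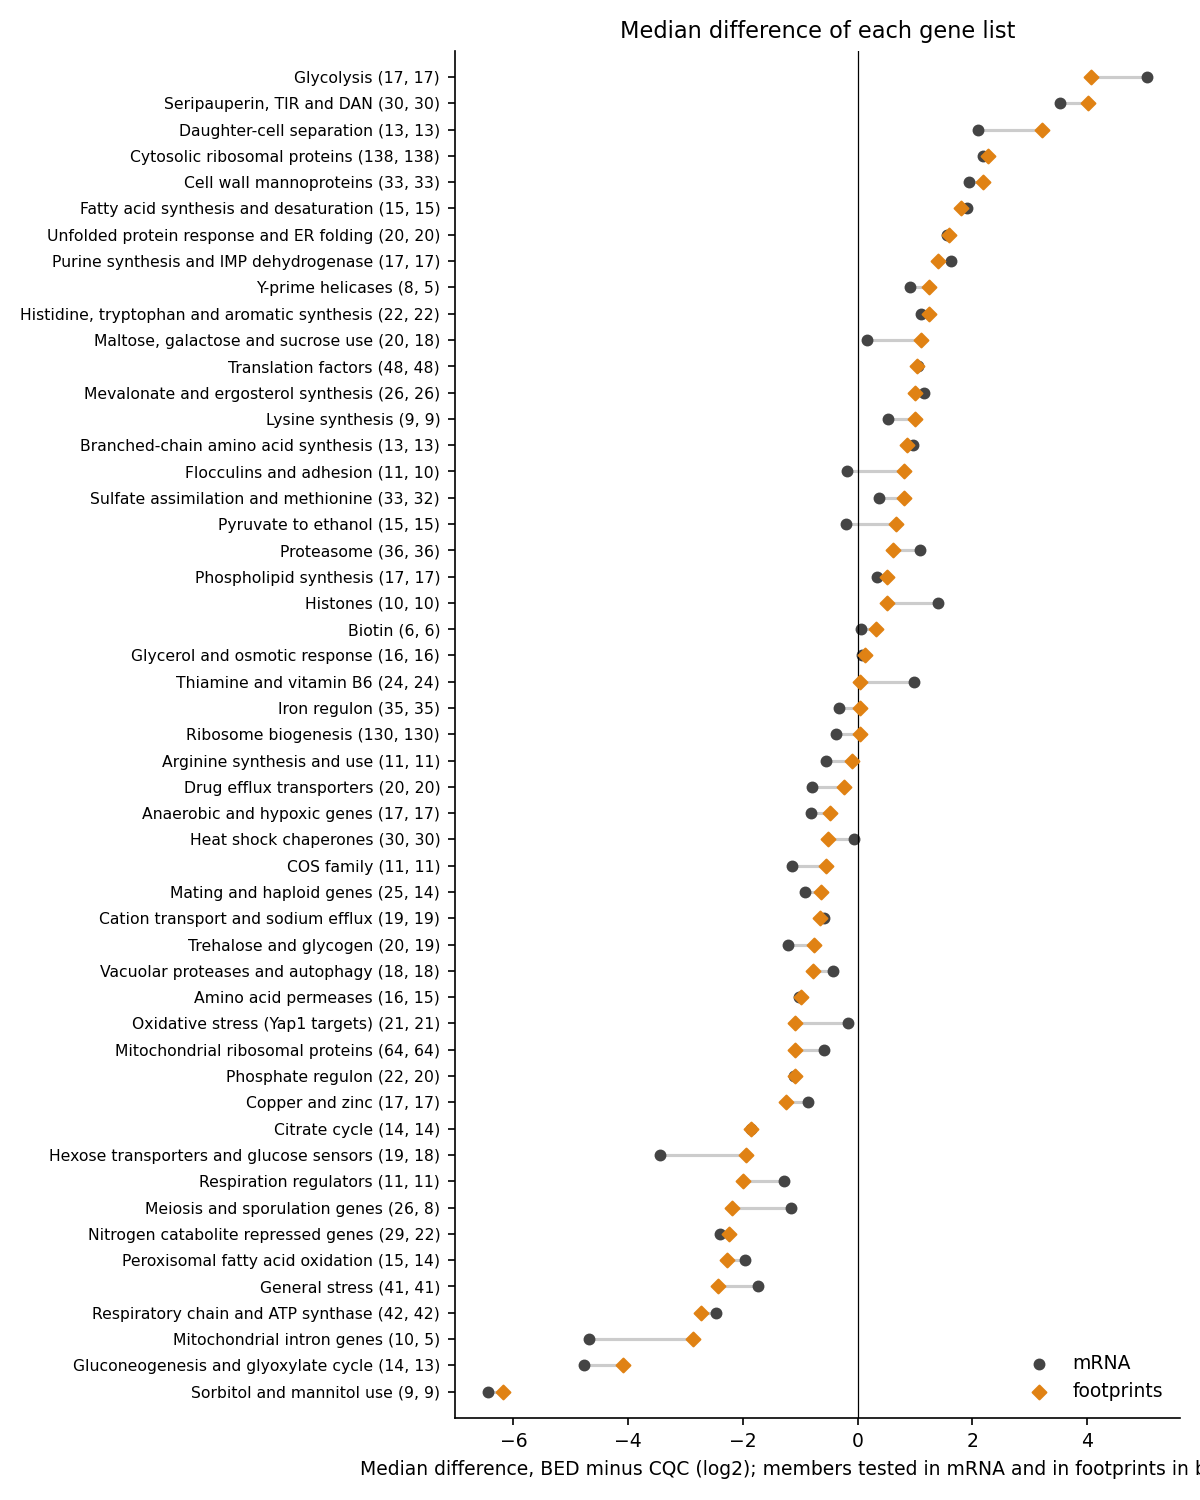
Each line is 1 gene list with the median log2 difference (BED minus CQC) of its tested members in mRNA (circles) and in footprints (diamonds); numbers in brackets are members tested in each assay. Glycolysis stands at 5.04 in mRNA and 4.07 in footprints, and sorbitol and mannitol use at -6.45 and -6.19.

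Glycolysis was higher in BED, with the highest median of the 52 lists in mRNA and in footprints. Of 17 genes, 15 were called higher in BED and 0 lower in footprints, where the median difference was 4.07 against 0.03 over all genes. Together their share of footprint reads was 20.1% and 21.5% in BED, against 1.81% and 1.38% in CQC, and 6.90% to 18.4% in the means of the other 6 isolates. The enzymes from glyceraldehyde-3-phosphate dehydrogenase to pyruvate kinase differed most. The median of these 9 genes was 6.81 in mRNA and 4.49 in footprints, against 3.35 and 2.97 for the 8 genes above them.

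Enolase makes phosphoenolpyruvate near the end of the pathway and has a pair of near-identical genes whose reads could be shared. ENO2 mRNA had 7807 and 8068 CPM in BED, against 6.94 and 12.6 CPM in CQC. ENO2 footprints were at 30729.5 and 34795 CPM in BED, against 1181 and 635 CPM in CQC. Both BED libraries were above both CQC libraries in each assay, and the footprint difference was 5.18 ± 0.28 (edgeR adjusted p = 3.06e-14). The mRNA sum of ENO1 and ENO2 was 17195 and 18261 CPM in BED, against 68.3 and 103 CPM in CQC. The footprint sum was 62929 and 71732 CPM in BED, against 2615 and 1405 CPM in CQC, so the difference holds whichever copy the reads came from.

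Glyceraldehyde-3-phosphate dehydrogenase showed the same split. The 3 TDH genes summed in mRNA to 13632 and 13399 CPM in BED, against 231 and 325 CPM in CQC. In footprints the sum was 95648 and 107679 CPM in BED, against 6599 and 4388 CPM in CQC. Both CQC libraries were far below both BED libraries in each sum. Phosphoglycerate mutase GPM1 had mRNA levels of 9297 and 9624 CPM in BED, against 51.03 and 53.9 CPM in CQC. GPM1 footprints were at 9663 and 11755 CPM in BED, against 349 and 224 CPM in CQC (footprint difference 5.23 ± 0.26, edgeR adjusted p = 5.72e-15). Phosphoglycerate kinase PGK1 had footprint levels of 12557 and 13985 CPM in BED, against 687 and 482 CPM in CQC (difference 4.51 ± 0.24, edgeR adjusted p = 2.42e-14). The groups did not overlap for either gene. HXK2, the hexokinase that also takes part in glucose repression, had mRNA levels of 1787 and 1758 CPM in BED, against 54.6 and 52.9 CPM in CQC. HXK2 footprints were at 1923 and 2256 CPM in BED, against 108 and 78.05 CPM in CQC, again with BED above CQC throughout (4.50 ± 0.26, edgeR adjusted p = 7.53e-14).

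Beyond pyruvate the steps to ethanol split by isozyme. Of 15 genes, 6 were called higher in BED and 5 lower in footprints (40% and 33.3%, against 27.5% and 26% over all genes). The main pyruvate decarboxylase PDC1 had mRNA levels of 1915 and 1874 CPM in BED, against 15.4 and 14.99 CPM in CQC. PDC1 footprints were at 19012 and 21801 CPM in BED, against 972 and 618 CPM in CQC. Its BED values were all above its CQC values (footprint difference 4.69 ± 0.24, edgeR adjusted p = 1.7e-14). Alcohol dehydrogenase ADH1, which makes ethanol, had footprint levels of 18904 and 20864 CPM in BED, against 1498 and 1191 CPM in CQC (3.89 ± 0.25, edgeR adjusted p = 5.24e-13). ADH2, known as the glucose-repressed enzyme that oxidises ethanol, was also higher in BED, with mRNA at 466 and 449 CPM in BED, against 16.8 and 22.8 CPM in CQC, and footprints at 4863 and 5394 CPM in BED, against 426 and 231 CPM in CQC (3.98 ± 0.25, edgeR adjusted p = 5.74e-13). The ADH genes are closely related, and how reads shared between them were assigned is not given in the sources used here. ACS1, the acetyl-CoA synthetase used on acetate, went the other way, with mRNA at 13.1 and 10.4 CPM in BED, against 1264 and 1388 CPM in CQC, and footprints at 31.1 and 14.2 CPM in BED, against 2651 and 1961 CPM in CQC (-6.72 ± 0.38, edgeR adjusted p = 6.45e-14).

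Gluconeogenesis and the glyoxylate cycle, which build sugar from ethanol and acetate, were lower in BED in footprints. All 13 genes tested were called lower (median -4.09). The median mRNA difference of 14 genes was -4.78. PCK1, phosphoenolpyruvate carboxykinase, had mRNA levels of 2.87 and 3.99 CPM in BED, against 624 and 641 CPM in CQC. PCK1 footprints were at 7.40 and 2.19 CPM in BED, against 1389.8 and 1144 CPM in CQC (difference -8.12 ± 0.36, edgeR adjusted p = 1.08e-15). FBP1, fructose bisphosphatase, had footprint levels of 4.44 and 1.10 CPM in BED, against 787 and 682 CPM in CQC (-8.11 ± 0.38, edgeR adjusted p = 2.37e-15). Every CQC library was far above every BED library for both genes. The malate synthase gene MLS1 had footprint levels of 11.8 and 5.48 CPM in BED, against 1378 and 1069 CPM in CQC (-7.19 ± 0.42, edgeR adjusted p = 9.47e-14). ADY2, an acetate transporter, had mRNA counts of 0 and 9 reads in BED, against 1360 and 1258 reads in CQC. Its footprint counts were 0 and 0 reads in BED, against 70 and 50 reads in CQC. On raw library totals without TMM scaling, its footprint level was at least 141-fold lower in BED. The floor was 3 reads over the pair of BED libraries.

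Hexose transporters were mostly lower in BED. Of 18 hexose transporters and sensors tested in footprints, 2 were called higher and 12 lower in BED. HXT5, a transporter known to be induced when growth slows, had mRNA levels of 25.7 and 20.4 CPM in BED, against 6615 and 9553 CPM in CQC. HXT5 footprints were at 29.6 and 36.1 CPM in BED, against 8813 and 10472 CPM in CQC. The groups were far apart (footprint difference -8.18 ± 0.33, edgeR adjusted p = 3.98e-16). The near-identical high-affinity carriers HXT6 and HXT7 summed in mRNA to 1078 and 1069.6 CPM in BED, against 21519 and 26858 CPM in CQC. In footprints the sum was 4048 and 3694 CPM in BED, against 21778 and 24878 CPM in CQC. HXT13, HXT15, HXT16 and HXT17, whose products carry sorbitol and mannitol, summed in mRNA to 1.49 and 1.82 CPM in BED, against 632 and 750.4 CPM in CQC. In footprints the sum was 1.48 and 10.95 CPM in BED, against 1024 and 709 CPM in CQC. BED stood below CQC in every library of these sums. With the sorbitol and mannitol dehydrogenases they make a list of 9 genes, of which 8 were called lower in footprints. DSF1, a mannitol dehydrogenase, had footprint levels of 37.01 and 26.3 CPM in BED, against 2812 and 1972 CPM in CQC (-6.26 ± 0.39, edgeR adjusted p = 5.29e-13). The means of the other 6 isolates ranged from 5.56 to 13312 CPM for the mRNA of the HXT13 group.

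Maltose use was higher in BED at the maltase step. The near-identical maltase genes MAL12 and MAL32 summed in mRNA to 1798 and 1898 CPM in BED, against 10.3 and 10.5 CPM in CQC. In footprints the sum was 2260.3 and 2621 CPM in BED, against 24.1 and 6.79 CPM in CQC, with means of 16.3 to 114 CPM in the mRNA of the other 6 isolates. BED thus stood above every other isolate. In footprints 9 of 18 genes for maltose, galactose and sucrose were called higher and 4 lower. MAL31, a maltose permease, had mRNA levels of 484 and 536 CPM in BED, against 272 and 271 CPM in CQC. MAL31 footprints were at 377 and 464 CPM in BED, against 4.02 and 6.79 CPM in CQC, so its footprint difference (6.22 ± 0.49, edgeR adjusted p = 5.74e-11) was far larger than its mRNA difference (0.91 ± 0.32).

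Respiration was lower in BED almost without exception. Of 42 nuclear genes for respiratory complexes and ATP synthase, 41 were called lower and 0 higher in footprints, and the median mRNA difference was -2.47. The footprint medians were -3.21 for complex II (4 genes), -3.41 for complex III (9 genes), -3.26 for complex IV (9 genes) and -1.69 for ATP synthase (15 genes). The share of footprint reads on the whole list was 0.591% and 0.510% in BED, against 3.89% and 4.12% in CQC. SDH2, the iron-sulfur subunit of succinate dehydrogenase, had mRNA levels of 70.5 and 73.4 CPM in BED, against 741 and 1034 CPM in CQC. SDH2 footprints were at 78.5 and 83.2 CPM in BED, against 2065 and 2104 CPM in CQC (-4.68 ± 0.23, edgeR adjusted p = 5.27e-15). COX13, a subunit of cytochrome c oxidase, had footprint levels of 167 and 116 CPM in BED, against 2603 and 2392 CPM in CQC (-4.15 ± 0.22, edgeR adjusted p = 2.29e-14). No BED library reached a CQC library for either gene. Cytochrome c has an aerobic form, CYC1, and a form induced at low oxygen, CYC7. CYC1 had footprint levels of 90.3 and 61.3 CPM in BED, against 522 and 563 CPM in CQC (-2.86 ± 0.28, edgeR adjusted p = 1.71e-09), and CYC7 had footprint levels of 29.6 and 16.4 CPM in BED, against 835 and 631 CPM in CQC (-5.03 ± 0.28, edgeR adjusted p = 6.45e-14), so both forms were lower in BED.

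Regulators of respiratory growth moved in the same direction. Of 11 genes, 10 were called lower in footprints, and 6 without CQC footprint library 1. HAP4, the activating and regulated subunit of the Hap complex, had mRNA levels of 85.6 and 78.1 CPM in BED, against 1648 and 1582 CPM in CQC. HAP4 footprints were at 48.8 and 37.2 CPM in BED, against 1036 and 903 CPM in CQC (-4.51 ± 0.24, edgeR adjusted p = 2.4e-14). CAT8, the activator of gluconeogenic genes, had footprint levels of 41.4 and 22.997 CPM in BED, against 369.5 and 428 CPM in CQC (-3.67 ± 0.27, edgeR adjusted p = 1.25e-11), and ADR1, the activator of ADH2 and peroxisomal genes, had footprint levels of 62.2 and 76.7 CPM in BED, against 554 and 563 CPM in CQC (-2.99 ± 0.28, edgeR adjusted p = 1.02e-09). BED was below CQC in every library of these 3 genes. In the citrate cycle, 9 of 14 genes were called lower and 2 higher in footprints. CIT1, citrate synthase, had footprint levels of 237 and 201 CPM in BED, against 3266 and 3448 CPM in CQC (-3.94 ± 0.22, edgeR adjusted p = 4.39e-14). ACO1, aconitase, had footprint levels of 406 and 366 CPM in BED, against 4242 and 4052 CPM in CQC (-3.43 ± 0.25, edgeR adjusted p = 8.08e-12).

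Mitochondrially encoded mRNAs took a smaller share in BED. The mRNA differences of the 8 protein-coding genes of the list were -3.97 to -4.77. COX1, the core subunit of cytochrome c oxidase, had 1522 and 1618 CPM in BED, against 35823 and 35724 CPM in CQC, and VAR1, a protein of the mitochondrial ribosome, had 331 and 359 CPM in BED, against 5862 and 5540.5 CPM in CQC. Mitochondrial open reading frames took at most 0.0192% of footprint reads in these libraries, so translation inside mitochondria is not described here. Mitochondrial ribosomal proteins made in the cytosol were lower for 42 of 64 genes in footprints, and higher for 0 (median -1.10). MRPS17, for the small subunit, had footprint levels of 45.9 and 45.99 CPM in BED, against 201 and 292 CPM in CQC (-2.43 ± 0.25, edgeR adjusted p = 4.95e-09).

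Peroxisomal fatty acid oxidation was mostly lower in BED. Of 14 peroxisomal genes tested in footprints, 11 were called lower and 1 higher. FOX2, the multifunctional enzyme of beta-oxidation, had footprint levels of 7.40 and 5.48 CPM in BED, against 169 and 190.03 CPM in CQC (-4.81 ± 0.36, edgeR adjusted p = 1.29e-11), and POT1, the thiolase, had footprint levels of 2.96 and 3.29 CPM in BED, against 133 and 61.1 CPM in CQC (-4.86 ± 0.56, edgeR adjusted p = 4.43e-08). Both genes were at a few reads per library in BED.

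**Figure D3:**
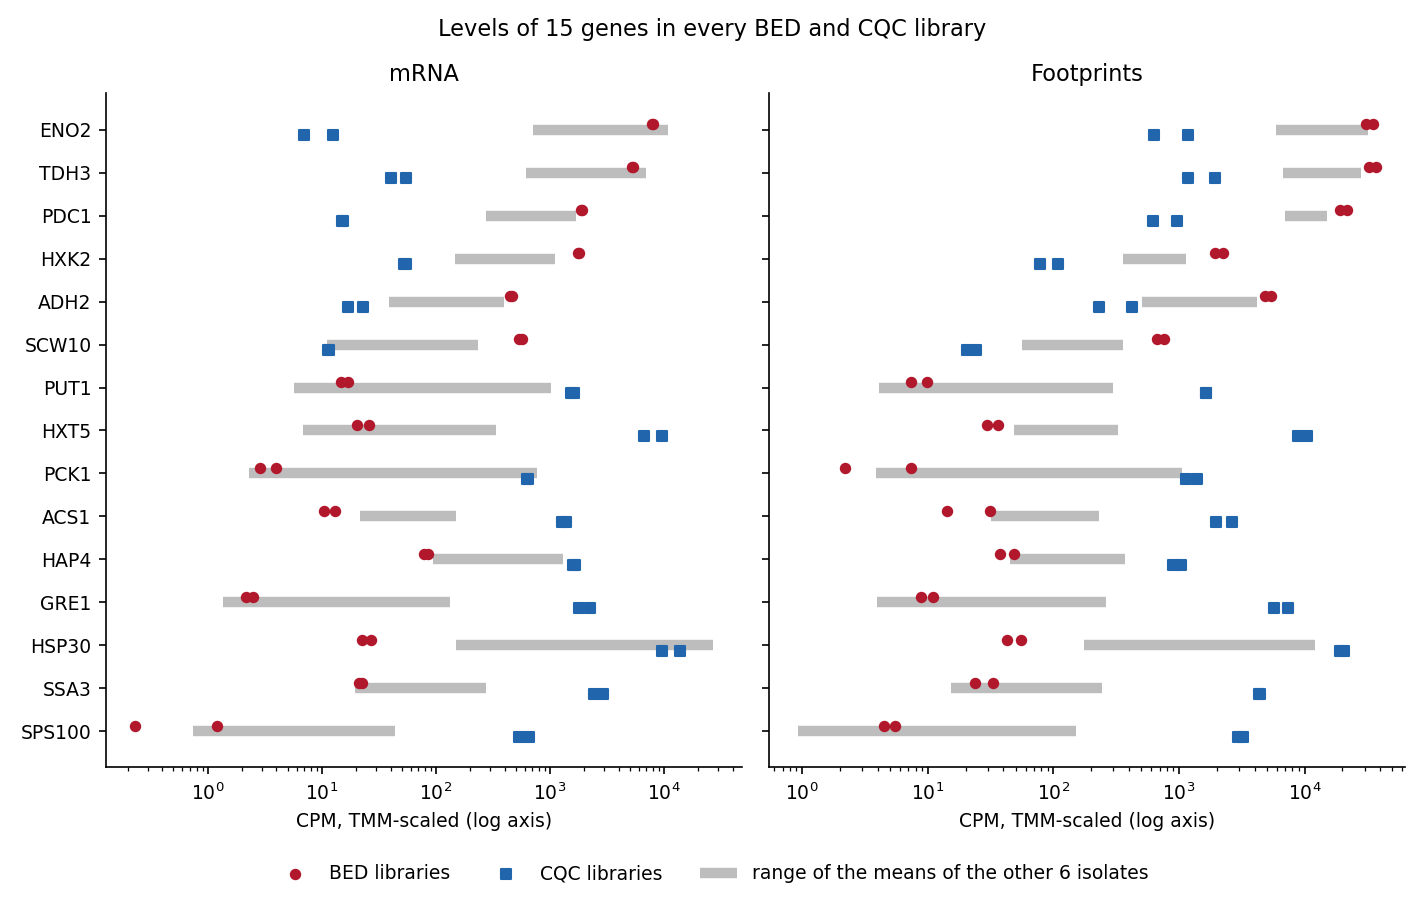
CPM of 15 genes (log axis) in every BED library (circles) and CQC library (squares), mRNA on the left and footprints on the right, over grey bars that span the means of the other 6 isolates; a library with 0 reads has no point on a log axis. ENO2 footprints stand at 30729.5 and 34795 CPM in BED, against 1181 and 635 CPM in CQC, and HXT5 footprints at 29.6 and 36.1 CPM in BED, against 8813 and 10472 CPM in CQC.

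General stress genes were mostly lower in BED. Of 41 general stress genes, 30 were called lower in BED and 5 higher in footprints (3 higher without BED footprint library 1 or CQC footprint library 2), and their summed share of footprint reads was 1.59% and 1.44% in BED, against 10.8% and 10.8% in CQC. GRE1, a hydrophilin induced by stress, had mRNA levels of 2.18 and 2.51 CPM in BED, against 1808 and 2267 CPM in CQC. GRE1 footprints were at 8.88 and 10.95 CPM in BED, against 7367 and 5708 CPM in CQC. HSP30, a stress protein of the plasma membrane, had mRNA levels of 22.3 and 27.2 CPM in BED, against 9579 and 13731 CPM in CQC. HSP30 footprints were at 54.8 and 42.7 CPM in BED, against 19075 and 20469 CPM in CQC. For both genes both CQC libraries stood far above both BED libraries, with footprint differences of -9.33 ± 0.39 (edgeR adjusted p = 4.76e-16) and -8.68 ± 0.49 (edgeR adjusted p = 7.53e-14). HSP12, a small membrane-stabilising protein, had footprint levels of 78.5 and 73.4 CPM in BED, against 5840.2 and 5871 CPM in CQC (-6.27 ± 0.42, edgeR adjusted p = 1.53e-12). SPI1, a cell wall protein induced in stationary phase, had mRNA levels of 45.3 and 42.4 CPM in BED, against 1143 and 1444 CPM in CQC. SPI1 footprints were at 155 and 130.3 CPM in BED, against 15296 and 14572 CPM in CQC (-6.71 ± 0.29, edgeR adjusted p = 9.23e-16). SPG4, required for survival in stationary phase, had footprint levels of 2.96 and 1.10 CPM in BED, against 1968 and 1873 CPM in CQC (-9.89 ± 0.43, edgeR adjusted p = 9.23e-16). The groups did not overlap for any of these genes.

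Chaperones did not move as 1 group. In footprints 14 of 30 heat shock chaperone genes were called lower and 6 higher in BED. The stress-induced Hsp70 gene SSA3 had mRNA levels of 22.3 and 21.2 CPM in BED, against 2442 and 2919 CPM in CQC. SSA3 footprints were at 23.7 and 32.9 CPM in BED, against 4394 and 4296 CPM in CQC (-7.23 ± 0.33, edgeR adjusted p = 1.26e-15). Hsp26 and Hsp42, which hold unfolded proteins, were also lower: HSP26 had footprint levels of 1827 and 1727 CPM in BED, against 13247 and 11426 CPM in CQC (-2.80 ± 0.26, edgeR adjusted p = 7.32e-10). SSB2, whose Hsp70 works on chains leaving the ribosome, was higher, with 3572 and 3852 CPM in BED, against 1076 and 947 CPM in CQC (1.88 ± 0.19, edgeR adjusted p = 4.46e-09). SSE1, a nucleotide exchange factor for Hsp70, was higher as well, with 727 and 661 CPM in BED, against 181 and 204 CPM in CQC (1.85 ± 0.21, edgeR adjusted p = 3.77e-08).

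Storage carbohydrate and recycling were mostly lower in BED. For trehalose and glycogen, 11 of 19 genes were called lower and 3 higher in footprints. GLC3, the glycogen branching enzyme, had footprint levels of 231 and 184 CPM in BED, against 3113 and 2525 CPM in CQC (-3.77 ± 0.31, edgeR adjusted p = 6.7e-11), while PGM1, a phosphoglucomutase, was higher, with 154 and 140.2 CPM in BED, against 8.03 and 16.97 CPM in CQC (3.50 ± 0.38, edgeR adjusted p = 1.07e-08). Of 18 genes for vacuolar proteases and autophagy, 10 were lower and 3 higher. ATG39, the receptor for autophagy of the nucleus, had footprint levels of 5.92 and 2.19 CPM in BED, against 466 and 526 CPM in CQC (-6.99 ± 0.42, edgeR adjusted p = 2e-13), and ATG8, which coats the autophagosome, had footprint levels of 107 and 97.5 CPM in BED, against 679 and 499 CPM in CQC (-2.53 ± 0.22, edgeR adjusted p = 2.95e-10).

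Ribosomal proteins were the largest group raised in BED. Of 138 genes, 137 were called higher in footprints and 0 lower, and the median difference was 2.27 in footprints and 2.19 in mRNA. Their summed share of mRNA reads was 11.8% and 12.2% in BED, against 2.26% and 2.17% in CQC. Their share of footprint reads was 12.4% and 12.97% in BED, against 3.61% and 3.26% in CQC. Both subunits moved alike, with footprint medians of 2.41 over 57 genes of the 40S subunit and 2.22 over 81 genes of the 60S subunit. RPL26A had footprint levels of 481 and 646 CPM in BED, against 68.3 and 50.9 CPM in CQC (3.26 ± 0.28, edgeR adjusted p = 2.32e-10), and RPS29A had footprint levels of 243 and 315 CPM in BED, against 36.2 and 33.9 CPM in CQC (2.999 ± 0.34, edgeR adjusted p = 2.15e-08). Most ribosomal proteins are made by a pair of near-identical genes, whose single values are uncertain where reads were shared.

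Translation factors went with the ribosome, and ribosome assembly did not. Of 48 factors, 34 were called higher and 5 lower in footprints, with 3 lower without BED footprint library 2. Elongation factor 2, made by the duplicate genes EFT1 and EFT2, had footprint levels of 6579.6 and 7493 CPM in BED, against 1438 and 1249 CPM in CQC at EFT1 (2.39 ± 0.19, edgeR adjusted p = 7.19e-11). HEF3, a copy of the elongation factor 3 gene, was lower, with mRNA at 15.2 and 13.8 CPM in BED, against 1225 and 1350.0 CPM in CQC, and footprints at 56.2 and 40.5 CPM in BED, against 590.5 and 597 CPM in CQC (-3.64 ± 0.23, edgeR adjusted p = 7.53e-13). Of 130 ribosome biogenesis genes, 31 were called higher and 14 lower in footprints (23.8% and 10.8%, against 27.5% and 26% over all genes). Their median was -0.38 in mRNA and 0.04 in footprints, and -0.11 in footprints with 25 higher and 19 lower under DESeq2 size factors, and 19 were higher under DESeq2's Wald test. Leaving out a footprint library gave 18 higher without CQC library 1, 20 higher without CQC library 2 and 9 lower without BED library 2. NOP16 had footprint levels of 42.9 and 48.2 CPM in BED, against 165 and 183 CPM in CQC (-1.93 ± 0.28, edgeR adjusted p = 2.01e-06), and the RNA polymerase I subunit gene RPA190 had footprint levels of 239.8 and 218 CPM in BED, against 68.3 and 102 CPM in CQC (1.41 ± 0.26, edgeR adjusted p = 5.12e-05).

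**Figure D4:**
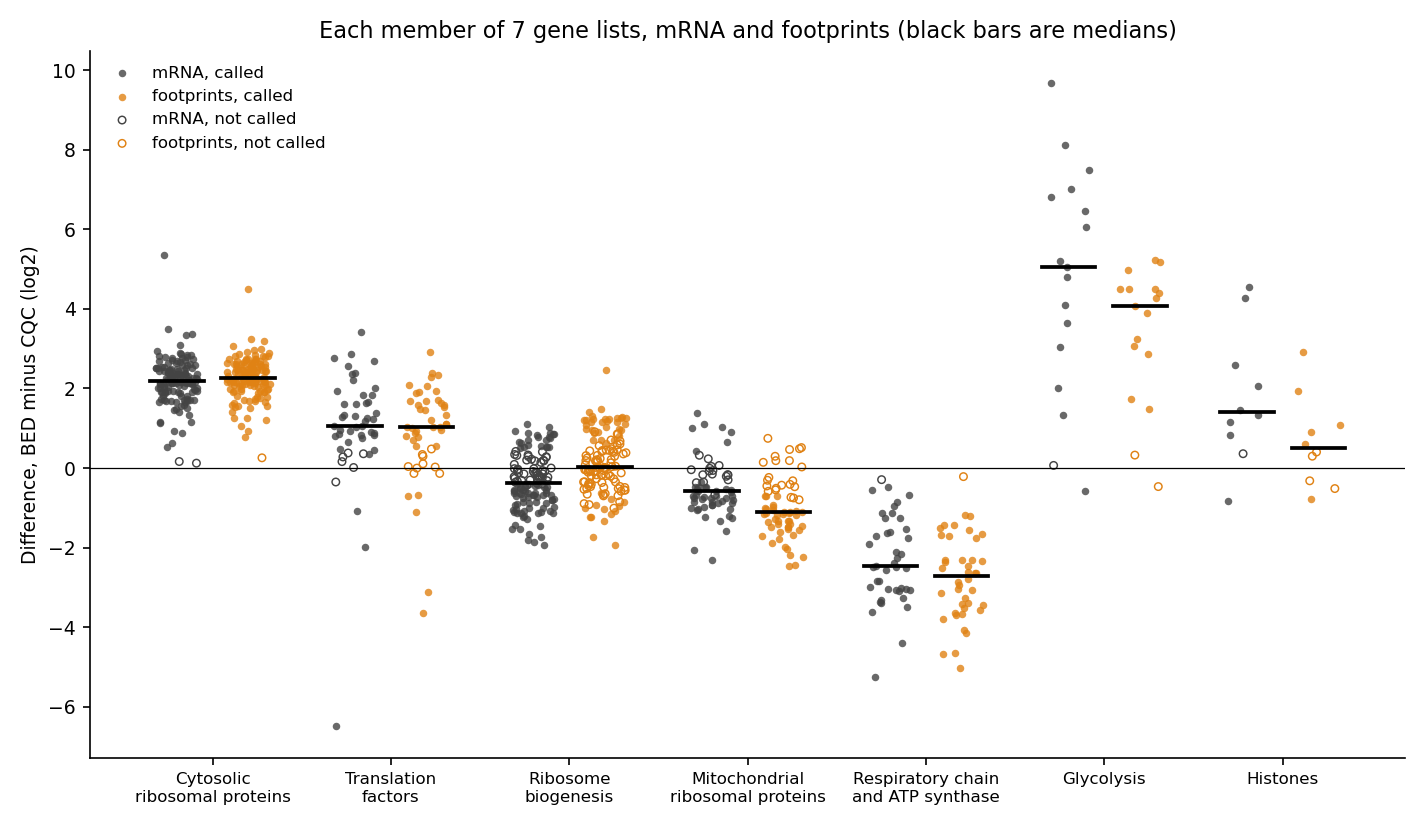
Each point is 1 member of 7 gene lists, placed by its log2 difference (BED minus CQC) in mRNA and in footprints; filled points were called, open points were not, and black bars are medians. The 138 ribosomal protein genes all lie above 0, and ribosome biogenesis genes centre on -0.38 in mRNA and 0.04 in footprints.

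Purine synthesis was mostly higher in BED, and several lists of amino acid synthesis had more genes called higher than lower. In purine synthesis, 14 of 17 genes were called higher and 1 lower in footprints. ADE17, which carries out the last steps to IMP, had mRNA levels of 1509 and 1495 CPM in BED, against 82.01 and 81.8 CPM in CQC. ADE17 footprints were at 1048 and 1280.1 CPM in BED, against 145 and 207 CPM in CQC (2.72 ± 0.22, edgeR adjusted p = 4.27e-11). ADE2, the gene whose loss turns colonies red, had footprint levels of 457 and 445 CPM in BED, against 72.3 and 109 CPM in CQC (2.30 ± 0.24, edgeR adjusted p = 5.73e-09). Of the synthesis of histidine, tryptophan and aromatic amino acids, 14 of 22 genes were higher and 2 lower. Branched-chain synthesis had 9 of 13 higher and 1 lower, and lysine synthesis 5 of 9 higher. Without CQC footprint library 2 these 3 lists had 9, 4 and 3 genes called higher. Arginine synthesis and use had 3 of 11 genes higher and 2 lower (27.3% and 18.2%), close to the 27.5% and 26% over all genes, and sulfate assimilation and methionine synthesis 13 of 32 higher and 7 lower (40.6% and 21.9%). HIS5 had footprint levels of 194 and 179.6 CPM in BED, against 32.1 and 30.5 CPM in CQC (2.57 ± 0.30, edgeR adjusted p = 4.07e-08), and ILV1, threonine deaminase, had footprint levels of 253 and 272 CPM in BED, against 48.2 and 71.3 CPM in CQC (2.12 ± 0.27, edgeR adjusted p = 2.51e-07). Some transaminases were lower in BED: ARO9 had footprint levels of 23.7 and 19.7 CPM in BED, against 261 and 149 CPM in CQC (-3.23 ± 0.30, edgeR adjusted p = 7.6e-10), and BAT2, the cytosolic branched-chain transaminase, had footprint levels of 53.3 and 43.8 CPM in BED, against 474 and 462 CPM in CQC (-3.28 ± 0.28, edgeR adjusted p = 1.63e-10). Its mitochondrial partner BAT1 was higher in BED, with 308 and 292 CPM in BED, against 76.3 and 57.7 CPM in CQC (2.17 ± 0.26, edgeR adjusted p = 6.39e-08). GCN4, the activator of amino acid synthesis, was lower in BED, with mRNA at 262 and 306 CPM in BED, against 1168 and 1074 CPM in CQC, and footprints at 14.8 and 20.8 CPM in BED, against 149 and 166 CPM in CQC (-3.11 ± 0.36, edgeR adjusted p = 4.07e-08).

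Most genes of sterol and fatty acid synthesis were called higher in BED. Of 26 genes of the mevalonate and ergosterol pathway, 18 were called higher and 2 lower in footprints. ERG11, the target of azole drugs, had mRNA levels of 7581 and 7516 CPM in BED, against 1479 and 1583 CPM in CQC. ERG11 footprints were at 5005 and 5156 CPM in BED, against 783 and 886 CPM in CQC (2.60 ± 0.20, edgeR adjusted p = 2.01e-11). Fatty acid synthesis and desaturation had 10 of 15 higher and 2 lower. The summed share of that list was nevertheless lower, at 1.55% and 1.56% of footprint reads in BED, against 2.56% and 2.69% in CQC. The subunits of fatty acid synthase moved together: FAS1 had footprint levels of 5283 and 5866 CPM in BED, against 707 and 665 CPM in CQC (3.02 ± 0.20, edgeR adjusted p = 9.55e-13), and FAS2 had footprint levels of 4747 and 5234 CPM in BED, against 884 and 808 CPM in CQC (2.56 ± 0.19, edgeR adjusted p = 1.81e-11). For protein folding in the endoplasmic reticulum, 12 of 20 genes were higher and 0 lower. KAR2, the Hsp70 of that compartment, had mRNA levels of 1331 and 1188 CPM in BED, against 158 and 214 CPM in CQC. KAR2 footprints were at 1276 and 1285 CPM in BED, against 257 and 255 CPM in CQC (2.32 ± 0.20, edgeR adjusted p = 2.8e-10). No CQC library reached a BED library in these 4 genes.

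Most wall and surface genes were higher in BED. Of 33 cell wall genes, 24 were called higher and 5 lower in footprints. Their summed share of footprint reads was nevertheless lower, at 4.45% and 4.29% in BED, against 5.56% and 5.25% in CQC. SCW10, a wall glucanase, had mRNA levels of 537 and 567 CPM in BED, against 11.3 and 11.5 CPM in CQC. SCW10 footprints were at 672 and 763 CPM in BED, against 24.1 and 20.4 CPM in CQC (5.02 ± 0.28, edgeR adjusted p = 7.53e-14). CRH1, which links chitin to glucan, had footprint levels of 1007 and 924 CPM in BED, against 8.03 and 47.5 CPM in CQC (5.04 ± 0.34, edgeR adjusted p = 2.1e-12). Seripauperins and TIR and DAN mannoproteins, known from low oxygen and cold, had 29 of 30 genes higher and 1 lower. The median mRNA difference was 3.53, but PAU8, PAU19, PAU21, PAU22 and DAN4 were lower in BED in mRNA (-1.80 to -2.23). DAN1 was at 1.13 in mRNA and -0.60 in footprints. The list's share of footprint reads was 1.70% and 1.27% in BED, against 0.267% and 0.204% in CQC. The median of the other 6 isolates was 2.83%, so BED was not high among the 8 isolates. TIR2 had footprint levels of 3163 and 3094 CPM in BED, against 149 and 88.2 CPM in CQC (4.74 ± 0.29, edgeR adjusted p = 2.94e-13). The 24 seripauperin (PAU) genes are near copies that can share reads: they count as 1 family rather than as 24 separate results, and some members showed identical values. FLO1, a flocculin that makes cells clump, had footprint levels of 1529 and 1999.6 CPM in BED, against 80.3 and 16.97 CPM in CQC (5.24 ± 0.46, edgeR adjusted p = 3.2e-10), though flocculin genes hold repeats and resemble each other. FLO1 had the highest difference of its list. Of 10 flocculin and adhesion genes tested, 3 were called higher and 1 lower (30% and 10%, against 27.5% and 26% over all genes).

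Daughter separation genes were higher in BED. In the list for separation of daughter cells, 12 of 13 genes were called higher and 0 lower in footprints. DSE4, a glucanase that cuts the septum, had mRNA levels of 224 and 255 CPM in BED, against 7.55 and 4.997 CPM in CQC. DSE4 footprints were at 221 and 200.4 CPM in BED, against 24.1 and 0 CPM in CQC (4.23 ± 0.45, edgeR adjusted p = 8.96e-09). ASH1, a daughter-specific repressor, had footprint levels of 82.9 and 97.5 CPM in BED, against 8.03 and 6.79 CPM in CQC (3.60 ± 0.46, edgeR adjusted p = 1.91e-07). Several genes of the cell cycle and of DNA replication, named for the size of their footprint difference, had no footprint read in CQC. Not all cell cycle genes went this way. CLB5, also a cyclin gene, was called lower in BED in footprints (-1.62), though its CQC libraries differed widely (44.2 and 139 CPM). The cyclin gene CLN2 had 24 and 40 reads in BED, against 0 and 0 reads in CQC, at least 6.06-fold higher. YOX1, a repressor of the early cell cycle, had 30 and 44 reads in BED, against 0 and 0 reads in CQC, at least 7.01-fold higher. RFA3, a subunit of the single-strand DNA binding protein, had 32 and 45 reads in BED, against 0 and 0 reads in CQC, at least 7.29-fold higher. These bounds take 3 reads over the CQC pair as the floor, on raw library totals without TMM scaling. DPB2, for DNA polymerase epsilon, was at least 5.68-fold higher, and HUG1, an inhibitor of ribonucleotide reductase, at least 21.6-fold higher, with 102 and 126 reads in BED, against 0 and 0 reads in CQC. CLB1, a mitotic cyclin, had mRNA levels of 276 and 347 CPM in BED, against 11.9 and 13.9 CPM in CQC. CLB1 footprints were at 53.3 and 101 CPM in BED, against 16.1 and 0 CPM in CQC (3.40 ± 0.61, edgeR adjusted p = 3.4e-05).

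Of 10 histone genes, 5 were called higher, 1 lower and 4 not called in footprints. Under DESeq2 size factors 4 were higher and 2 lower. Their summed share of footprint reads was lower in BED, at 0.334% and 0.336%, against 0.351% and 0.380% in CQC. The median difference of the 10 genes was 0.51 in footprints and 1.40 in mRNA. HTA2, for histone H2A, had mRNA levels of 361 and 379 CPM in BED, against 17.4 and 20.7 CPM in CQC. HTA2 footprints were at 292 and 324 CPM in BED, against 68.3 and 91.6 CPM in CQC (1.93 ± 0.25, edgeR adjusted p = 2.08e-07). HHT1, for histone H3, was the gene called lower, with 739 and 732 CPM in BED, against 1209 and 1323 CPM in CQC (-0.79 ± 0.19, edgeR adjusted p = 0.000917). Each histone is made from near copies of a gene, so single values are uncertain where reads were shared. The proteasome had 19 of 36 genes higher and 7 lower in footprints (4 lower without CQC footprint library 2). Its summed share of footprint reads was lower, at 0.721% and 0.679% in BED, against 0.816% and 0.829% in CQC. RPN1 had footprint levels of 361 and 365 CPM in BED, against 104 and 112 CPM in CQC (1.74 ± 0.22, edgeR adjusted p = 2.32e-07), while RPN4, the short-lived activator of proteasome genes, was lower, with mRNA at 157 and 157 CPM in BED, against 1013 and 927 CPM in CQC, and footprints at 71.1 and 71.2 CPM in BED, against 655 and 614 CPM in CQC (-3.15 ± 0.22, edgeR adjusted p = 2.7e-12).

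Nitrogen and phosphate genes were mostly lower in BED. Of 22 nitrogen catabolite repressed genes tested in footprints, 17 were called lower and 1 higher. PUT1, proline oxidase, had mRNA levels of 17.01 and 14.8 CPM in BED, against 1527 and 1627 CPM in CQC. PUT1 footprints were at 7.40 and 9.86 CPM in BED, against 1651 and 1625 CPM in CQC (-7.52 ± 0.34, edgeR adjusted p = 1.26e-15). GAP1, the general amino acid permease, had footprint levels of 1.48 and 3.29 CPM in BED, against 108 and 143 CPM in CQC (-5.58 ± 0.53, edgeR adjusted p = 1.07e-09). PTR2, the peptide transporter, had footprint levels of 26.6 and 13.1 CPM in BED, against 1812 and 1832 CPM in CQC (-6.57 ± 0.27, edgeR adjusted p = 3.98e-16). BED was lower in every library of the 3 genes. Amino acid permeases had 7 of 15 lower and 4 higher (46.7% and 26.7%, against 26% and 27.5% over all genes), and AGP1 had footprint levels of 74.01 and 67.9 CPM in BED, against 1305 and 1313 CPM in CQC (-4.21 ± 0.22, edgeR adjusted p = 2.29e-14). In the phosphate regulon, 10 of 20 genes were lower (50%) and 5 higher (25%, near the 27.5% over all genes, and 3 higher without BED footprint library 2 or CQC footprint library 2). The sodium-phosphate carrier gene PHO89 had footprint counts of 0 and 0 reads in BED, against 14 and 21 reads in CQC. On raw library totals it was at least 41.1-fold lower in BED. The acid phosphatase PHO5 was higher, with 277 and 264 CPM in BED, against 16.1 and 10.2 CPM in CQC (4.38 ± 0.36, edgeR adjusted p = 8.42e-11).

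Metal and ion genes went both ways. Sodium export stood apart: ENA1, ENA2 and ENA5, tandem near-identical pumps on chromosome IV, summed in mRNA to 23.8 and 19.8 CPM in BED, against 7207 and 8181 CPM in CQC. In footprints the sum was 1.48 and 5.48 CPM in BED, against 1342 and 1422 CPM in CQC. The other 6 isolates had mRNA means of 24.0 to 718 CPM, so CQC stood above and BED below all of them. PMA1, the main proton pump, was higher in BED, with footprints at 6842 and 7866 CPM in BED, against 1358 and 1561 CPM in CQC (2.33 ± 0.19, edgeR adjusted p = 6.1e-11). In all, 9 of 19 cation genes were lower and 3 higher. For copper and zinc, 12 of 17 genes were lower and 0 higher: the metallothionein CRS5 had footprint levels of 5.92 and 6.57 CPM in BED, against 888 and 753 CPM in CQC (-6.996 ± 0.32, edgeR adjusted p = 2.14e-15), and the zinc transporter ZRT1 had footprint levels of 65.1 and 44.9 CPM in BED, against 1237 and 964 CPM in CQC (-4.34 ± 0.24, edgeR adjusted p = 4.39e-14). The iron regulon had 13 of 35 genes higher and 10 lower (37.1% and 28.6%), not far from the 27.5% and 26% over all genes. FRE3, a siderophore reductase, had footprint levels of 151 and 175 CPM in BED, against 4.02 and 10.2 CPM in CQC (4.45 ± 0.51, edgeR adjusted p = 2.82e-08), and ISU1, the scaffold for iron-sulfur clusters, had footprint levels of 111 and 118 CPM in BED, against 2374 and 1897 CPM in CQC (-4.21 ± 0.22, edgeR adjusted p = 1.85e-14).

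Vitamin B6 genes went both ways. SNZ2 and SNZ3, near-identical copies, summed in mRNA to 695 and 696 CPM in BED, against 6.47 and 7.96 CPM in CQC. In footprints the sum was 964 and 1113 CPM in BED, against 8.03 and 6.79 CPM in CQC, while SNZ1, the copy known to be induced in stationary phase, had mRNA levels of 31.6 and 35.97 CPM in BED, against 647 and 747 CPM in CQC. SNZ1 footprints were at 13.3 and 16.4 CPM in BED, against 767 and 679 CPM in CQC (-5.57 ± 0.27, edgeR adjusted p = 5.72e-15). BED stood above CQC for the pair and below it for SNZ1 in every library. Over the thiamine and vitamin B6 list, 7 of 24 genes were called higher and 5 lower in footprints, with 3 lower without BED footprint library 2 or CQC footprint library 1. These shares, 29.2% and 20.8%, are near the 27.5% and 26% over all genes.

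Markers of mating and sporulating cells were checked in both isolates, and their part in the other differences was not tested. The 29 mating and haploid genes had a share of mRNA reads of 0.0354% and 0.0352% in BED, against 0.0443% and 0.0408% in CQC, and 0.0354% to 0.0951% in the means of the other 6 isolates. The pheromone genes MFA1, MFA2 and MF(ALPHA)2 and the agglutinin gene AGA2 had at most 5 reads in each of the 8 libraries. Other members had mRNA reads in both isolates: MF(ALPHA)1 had 17 and 16 reads in BED, against 8 and 4 reads in CQC. MATALPHA2 had 639 and 821 reads in BED, against 884 and 866 reads in CQC, HMRA1 had 286 and 398 reads in BED, against 396 and 378 reads in CQC, and the pheromone exporter STE6 had 139 and 196 reads in BED, against 258 and 164 reads in CQC. In the sporulation list, NDT80, the switch for meiotic progression, had mRNA counts of 32 and 49 reads in BED, against 31 and 14 reads in CQC, and IME1, the inducer of meiosis, had 3 and 0 reads in BED, against 38 and 33 reads in CQC. The list's share of footprint reads was 0.0108% and 0.0137% in BED, against 0.335% and 0.335% in CQC. Nearly all of CQC's share came from 1 gene, SPS100, a spore wall protein, with footprint counts of 3 and 5 reads in BED, against 801 and 872 reads in CQC (difference -9.23 ± 0.41, edgeR adjusted p = 9.23e-16). Of the 8 sporulation genes tested in footprints, 1 was called higher and 3 lower (12.5% and 37.5%, against 27.5% and 26% over all genes). The 1 called higher was CLB1, the mitotic cyclin gene described above.

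Some genes had no mRNA read at all in 1 isolate. PGU1, a secreted pectinase (YJR153W, chromosome X, 722815 to 723900 in the R64 assembly), had mRNA counts of 1223 and 1764 reads in BED, against 0 and 0 reads in CQC. Its footprint counts were 96 and 158 reads in BED, against 0 and 0 reads in CQC. On raw library totals, it was at least 709-fold higher in BED in mRNA and at least 24.1-fold higher in footprints. The floor was again 3 reads over the pair. Whether CQC lacks the gene or does not express it was not tested.

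The reverse case lay in 3 neighbouring iron genes on chromosome XV, between 1059531 and 1063648 in the R64 assembly. FIT2 and FIT3 encode wall mannoproteins that help retain siderophores, and FRE5 a putative iron reductase. FIT2 had mRNA counts of 0 and 1 reads in BED, against 1903 and 1488 reads in CQC, FIT3 had 0 and 0 reads in BED, against 1201 and 974 reads in CQC, and FRE5 had 0 and 0 reads in BED, against 1485 and 1314 reads in CQC. FIT3 mRNA was at least 1017-fold lower in BED, and FRE5 mRNA at least 1309-fold lower, on raw library totals. Footprint reads were nevertheless counted in BED: FIT2 had 234 and 122 reads in BED, against 1282 and 1399 reads in CQC and FIT3 had 450 and 219 reads in BED, against 1172 and 1112 reads in CQC, while FRE5 had 6 and 4 reads in BED, against 17 and 23 reads in CQC. BED footprint levels were 4.85% of those in CQC for FIT2 and 10.7% for FIT3, against 0.0152% and 0% in mRNA. Reads shared between footprint libraries, which would raise such values, were not tested for.

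Other genes without BED mRNA reads included members of a subtelomeric family and 1 inside chromosome XII. COS10 and COS12, members of a subtelomeric family of membrane proteins, had no BED mRNA read: COS10 had mRNA counts of 0 and 0 reads in BED, against 558 and 565 reads in CQC. COS12 had mRNA counts of 0 and 0 reads in BED, against 644 and 485 reads in CQC. COS10 (chromosome XIV, 779916 to 781040 in the R64 assembly) lies next to AIF1, a mitochondrial cell death effector, which had 0 and 0 reads in BED, against 246 and 234 reads in CQC. MAL11, a maltose and trehalose permease, had mRNA counts of 0 and 0 reads in BED, against 178 and 113 reads in CQC. Its footprint counts were 5 and 2 reads in BED, against 2 and 0 reads in CQC, and its neighbour MAL13, the activator of that locus, had mRNA counts of 1 and 1 reads in BED, against 745 and 608 reads in CQC. JIP3 (chromosome XII, 790669 to 791046 in the R64 assembly), whose span overlaps that of MID2 on the opposite strand, had mRNA counts of 0 and 0 reads in BED, against 159 and 108 reads in CQC. In all, 24 open reading frames had at most 3 mRNA reads over the BED pair and at least 20 CPM in CQC, and 18 of them had a footprint read in BED, 784 and 389 reads in the 2 libraries. In CQC 4 such open reading frames had 4 and 3 footprint reads. What produced footprint reads on genes without mRNA reads was not tested.

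Translation efficiency (TE) is the footprint difference less the mRNA difference, fitted as the interaction of assay and isolate. It shares the mRNA libraries that chose the pair, so its calls are counts that describe these libraries. In all, 408 of 5337 genes were called (7.64%), 172 higher in BED (3.22%) and 236 lower (4.42%). With DESeq2 size factors in the same test the split was 151 higher and 338 lower, and with DESeq2's Wald test 169 and 453. Among 1651 genes with a mean of 20 reads per library in all 4 groups, 200 were called (12.1%), 50 higher (3.03%) and 150 lower (9.09%). Over all genes, 252 were called without BED footprint library 2 and 268 without CQC footprint library 2.

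Several glycolytic genes were lower in TE in BED. Of 17 genes, 9 were called lower and 0 higher (52.9% and 0%, against 4.42% and 3.22% over all genes, median -0.85). The calls lay mainly from glyceraldehyde-3-phosphate dehydrogenase to pyruvate kinase, with 7 of 9 genes. The log2 ratio of footprint to mRNA CPM for ENO2 was 1.98 and 2.11 in BED, against 7.41 and 5.66 in CQC. For TDH2 it was 3.83 and 3.99 in BED, against 7.89 and 7.36 in CQC. The ratio was higher in both CQC libraries than in either BED library for each gene. CQC stood at 0.123% of BED in ENO2 mRNA and 2.77% in ENO2 footprints, and at 0.802% and 3.89% for PDC1. Across 9 genes of glycolysis and the step to ethanol, picked after their values were seen, the CQC footprint level was 2.68% to 5.18% of that in BED, while the mRNA level ran from 0.123% to 3.03%. That range holds for the picked genes only. ADH1 and ADH2, which were not picked, lay above it (footprint differences 3.89 and 3.98). The 8 upper glycolytic genes, HXK2 among them, had a median footprint difference of 2.97 and a lowest of -0.47. What set these footprint percentages, and those of the FIT genes in BED, was not tested. Whether footprint reads were shared between libraries was not tested either, and shared reads would raise the CQC footprint levels, and so lower the BED minus CQC TE, of the genes lowest in CQC.

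Other lists had these TE calls, to be read against 3.22% higher and 4.42% lower over all genes. Histones had 4 of 10 genes called lower and 0 higher (median -1.21). Ribosomal proteins had 8 higher and 2 lower of 138 (5.8% and 1.45%), not far from the shares over all genes. The counts were 22 higher and 1 lower with the coding length trend removed, and 18 and 7 with the BED and CQC libraries fitted alone. They were 5 and 6 under DESeq2 size factors, and 3 and 3 with thinned mRNA. Leaving out any 1 of 6 libraries gave 3 to 5 higher, and leaving out CQC mRNA library 1 or BED footprint library 1 gave 6. Maltose, galactose and sucrose use had 7 of 18 higher and 0 lower (38.9% and 0%). These calls include MAL11, which had 0 and 0 mRNA reads in BED. Its footprint counts were 5 and 2 reads in BED, against 2 and 0 reads in CQC, so its fitted TE is no measure of size. Hexose transporters had 5 of 18 higher (3 without BED footprint library 2) and 2 lower (27.8% and 11.1%). The respiratory chain had 6 lower and 0 higher of 42, with 2 lower without CQC mRNA library 1 and 3 without either BED footprint library.

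Among well-read genes, PMA2 had the largest TE difference above 0. PMA2 resembles the main proton pump PMA1 and is normally little expressed. Its mRNA had 4.94 and 6.67 CPM in BED, against 504 and 616 CPM in CQC, and its footprints were at 460.4 and 495 CPM in BED, against 647 and 801 CPM in CQC, so the log2 ratio was 6.54 and 6.21 in BED, against 0.36 and 0.38 in CQC. PMA1 was itself abundant in BED, and reads that match both genes cannot be assigned here. HEF3, close in sequence to the main elongation factor 3 gene, had ratios of 1.89 and 1.56 in BED, against -1.05 and -1.18 in CQC. GPP1, which makes glycerol from glycerol phosphate, had mRNA levels of 70.2 and 72.6 CPM in BED, against 146 and 127 CPM in CQC. GPP1 footprints were at 620.2 and 694 CPM in BED, against 281 and 221 CPM in CQC, so BED stood below CQC in mRNA and above it in footprints. CPA1, for a subunit of carbamoyl phosphate synthetase and known for a regulatory upstream reading frame, had ratios of 0.42 and 0.41 in BED, against -1.38 and -2.13 in CQC. HPF1, a wall mannoprotein with repeats, had ratios of 3.31 and 3.10 in BED, against 1.33 and 1.001 in CQC. In each of these 5 genes both BED ratios stood above both CQC ratios.

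The well-read genes with lower TE in BED included several with lower mRNA levels in CQC. RIC1, for an exchange factor in transport to the Golgi, had mRNA levels of 113 and 126 CPM in BED, against 36.8 and 29.6 CPM in CQC. RIC1 footprints were at 102 and 126 CPM in BED, against 438 and 346 CPM in CQC. BED stood above CQC in mRNA and below it in footprints. SKG6, a protein of bud sites, had ratios of 0.66 and 0.93 in BED, against 4.29 and 4.14 in CQC. CLB5, YMD8 and SCC2 were also called lower, but their CQC footprint libraries differed widely (YMD8 152 and 199 CPM in BED, against 68.3 and 482 CPM in CQC), and these calls were lost in some alternatives.

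**Figure D5:**
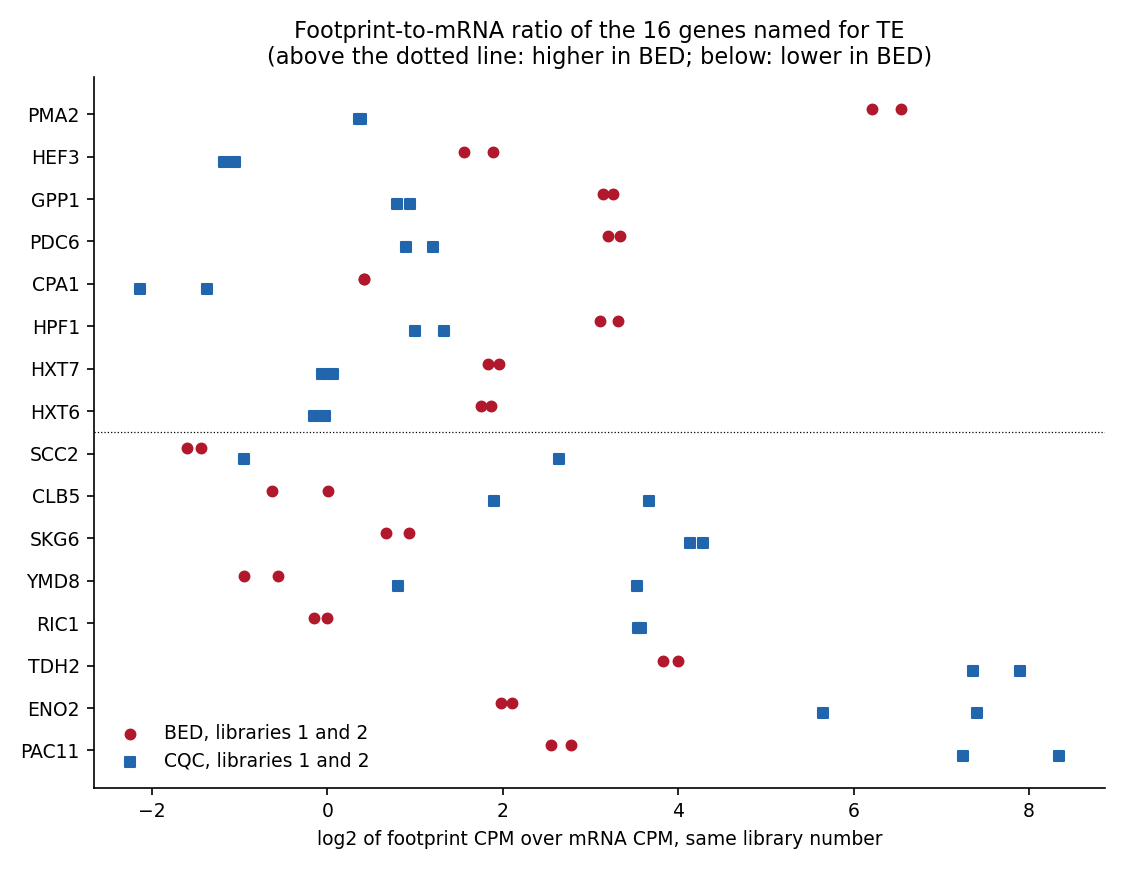
The log2 ratio of footprint CPM to mRNA CPM for the 16 genes named for TE, in BED (circles) and CQC (squares); libraries are matched by number only to draw a ratio. PMA2 is at 6.54 and 6.21 in BED, against 0.36 and 0.38 in CQC, and ENO2 at 1.98 and 2.11 in BED, against 7.41 and 5.66 in CQC.

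In 57 genes mRNA and footprints were called in opposite directions, and 23 of these had a mean of 20 reads per library in all 4 groups. PAC11, a dynein chain for nuclear movement, was the well-read gene with the widest gap: it had mRNA levels of 18.96 and 21.9 CPM in BED, against 4.01 and 2.96 CPM in CQC. PAC11 footprints were at 111 and 150.03 CPM in BED, against 611 and 960.4 CPM in CQC (-2.58 ± 0.39, edgeR adjusted p = 3.11e-06). IMA5, an isomaltase, had mRNA counts of 0 and 0 reads in BED, against 14 and 5 reads in CQC. Its footprint counts were 35 and 34 reads in BED, against 2 and 1 reads in CQC (2.96 ± 0.68, edgeR adjusted p = 0.000682). The near-identical open reading frames YAR068W and YHR214W-A and the transposon open reading frame YLR157C-B complete the 5 genes with the largest such gaps, and the mRNA call of IMA5 was lost with mRNA reads thinned to footprint depth and the footprint call of YLR157C-B without CQC footprint library 2. The acid phosphatases PHO11 and PHO12 also crossed, with an mRNA sum of 27.6 and 25.5 CPM in BED, against 132 and 120.1 CPM in CQC, and a footprint sum of 48.8 and 85.4 CPM in BED, against 24.1 and 10.2 CPM in CQC. Their footprint calls were lost in some alternatives.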

How the data were processed

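For each of 32 libraries the authors deposited raw read counts, 1 whole number for every open reading frame; the 8 libraries of BED and CQC are described and the other 24 share the estimate of spread. Per the submitters' processing notes, CASAVA 1.8, STAR 2.7.0a and the build sacCer3 were used. How reads were counted (tool, strand, reads with several matches) and footprints trimmed is not given in the sources used here. Genes with near-identical copies, and genes that overlap or lie antisense to another, are uncertain for that reason. The tables list 6696 open reading frames, and 6008 locus tags were found in the R64 gene table, 5276 of them with a symbol. The remaining 688 held 0.379% of reads. Coordinates are from that table, counted from 1.

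The tests were run with edgeR 4.0.16 under R 4.3.3 (filterByExpr with minimum count 10, TMM scaling within each assay, quasi-likelihood F-test over all 8 isolates, Benjamini-Hochberg adjustment at 0.05 over all genes tested), with DESeq2 1.42.0 as an alternative and Python 3.11.15 with pandas 2.3.3. For TE, a single model over the 32 libraries gave the interaction of isolate with assay. CPM are deposited counts scaled by TMM library sizes. The slope used log2 CPM (prior count 2) of genes with at least 100 reads in every library, with products taken across replicates. The edgeR fits of mRNA, footprints and TE were checked on simulated counts in which a small minority of genes changed. In these data 74.9% of genes passed the threshold in mRNA. The simulation therefore did not check scaling where most genes differ.

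The members, the 52 gene lists (1329 names, 1326 matched, 1280 distinct genes) and the tests were chosen with earlier results of these data known, so no p-value is adjusted over a list and no list is tested. Named genes came from a rule with 8 parts. They were the 10 largest differences in each direction in mRNA (at least 20 CPM in the higher isolate) and in footprints (at least 20 reads), and the 8 largest in TE (at least 20 reads in all 4 groups), in each case called, with a symbol and without overlap between the isolates. Each list described gave up to 5 members, those with the largest footprint difference in size, or every member of a list of at most 6. Those picked by size are extremes of their lists, and their p-values support no statement about a list. Up to 5 genes called in opposite directions and up to 6 genes per isolate with at most 3 mRNA reads were added. The 12 genes fixed by name and close paralogues complete the rule, 293 genes in all. MFA1, MF(ALPHA)1, MF(ALPHA)2, AGA2, MATALPHA2, HMRA1 and STE6 were named after their values were seen. Folds against an isolate with 0 reads are bounds, with 3 reads in its pair of libraries as the floor, which covers counting error only. Unlike the CPM, they use raw library totals. TMM factors were 1.10 and 1.09 in BED mRNA, against 0.926 and 0.874 in CQC. In footprints they were 0.891 and 0.841 in BED, against 1.002 and 1.07 in CQC. TMM scaling would thus lower the bounds for genes higher in BED in mRNA or lower in BED in footprints.

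Library numbers did not pair the isolates: deviations of same-numbered libraries correlated at 0.00166 in mRNA and 0.0359 in footprints. Replicate libraries differed beyond sampling noise (chi-square per degree of freedom 2.03 to 9.14). Alternatives covered scaling, DESeq2, the filter on low counts, the BED and CQC libraries fitted alone, a replicate block, mRNA thinned to footprint depth, removal of a coding length trend, and each library left out.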

Additional observations from a re-analysis of the deposited data

Results flagged for a closer look

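The 5 genes below were picked out because their BED and CQC difference took opposite signs in mRNA and in footprints, each past the threshold. The gap between the 2 differences repeats that choice and uses the mRNA values that chose the pair, so it is a description and no test. PAC11 had a footprint difference of -2.58 and an mRNA difference of 2.54, a gap of -5.03 on the log2 scale. The fitted gap was -17 for the transposon open reading frame YLR157C-B, 10.9 for YHR214W-A, 11.3 for YAR068W and 9 for IMA5. These 4 fitted gaps rest on 0 reads in 1 isolate and depend on the prior count, so they are no measure of size. The bounds that follow use a floor of 3 reads over the pair of libraries, on raw library totals. YLR157C-B was at least 48.0-fold higher in BED in mRNA and at least 5.87-fold lower in footprints. In mRNA, YHR214W-A was at least 32.7-fold lower in BED, YAR068W at least 41.6-fold and IMA5 at least 8.89-fold. YHR214W-A and YAR068W are near copies and count as 1 observation.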

How the results depend on the processing

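The numbers of called genes in mRNA and footprints stayed within 1.5 times under every alternative run: with 1 library left out they were 4217 to 4321 in mRNA, 2357 to 2601 in footprints and 252 to 371 in TE, where the lone library is assumed to vary like the other groups. With the replicate block they were 4691, 2858 and 414; library numbers do not pair the isolates. The TE count moved to 639 with the BED and CQC libraries fitted alone, to 622 with DESeq2's Wald test, to 280 with mRNA thinned to footprint depth, and to 200 over genes with 20 reads, a limit chosen after seeing the data. It was 252 without BED footprint library 2 and 268 without CQC footprint library 2. DESeq2 size factors moved the median of all genes by about 0.1, to -0.13 in mRNA, -0.11 in footprints and -0.13 in TE. The slope of 0.899 became 0.847 with a prior count of 10 and 0.859 over 3071 genes with 20 reads per library. Median differences changed sign for thiamine and vitamin B6 mRNA (-0.71), phospholipid (-0.35) and flocculin footprints (-0.19) over members with 20 reads. They did so for footprints of the steps to ethanol (-0.00339; 1.16 without CQC footprint library 1) and of mating genes (0.64; -0.90 without CQC footprint library 1) without CQC footprint library 2, for mating footprints (0) and meiosis TE (0.17) without the filter on low counts, for daughter separation TE (-0.61) and meiosis TE (0.12) with thinned mRNA, and for sorbitol TE (-3.66) without BED footprint library 2, where the other libraries left out gave up to 1.36. Single values changed sign for ATO3 (-0.37), LYS1 (-0.28) and IMA5 (0) in thinned mRNA, for SCC2 footprints (0.99 without CQC footprint library 2, -2.26 without library 1) and for ZPS1 footprints (0 without CQC footprint library 1, -8.58 without library 2); the cause was not tested. Of all recomputed values of named genes, 2962 of 2994 in mRNA, 2543 of 2612 in footprints and 861 of 952 in TE kept direction and call. Footprint depth in CQC limits what low genes can show.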

Other observations

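Other gene groups also differed between BED and CQC, and are given here as counts of footprint calls with no test of a list. Over all genes tested, 27.5% were higher and 26% lower. In the sulfate and methionine list, CYS3, cystathionine gamma-lyase, had footprint levels of 500.3 and 525 CPM in BED, against 72.3 and 47.5 CPM in CQC (3.11 ± 0.27, edgeR adjusted p = 1.89e-10). For the anaerobic and hypoxic list, 4 of 17 genes were higher and 7 lower. HEM13, an oxygen-dependent enzyme of haem synthesis that is induced at low oxygen, had footprint levels of 969.5 and 1174 CPM in BED, against 120.5 and 50.9 CPM in CQC (3.68 ± 0.31, edgeR adjusted p = 1.33e-10). The repressor of that response, ROX1, was lower, with 241 and 107 CPM in BED, against 1209 and 699 CPM in CQC (-2.47 ± 0.38, edgeR adjusted p = 4.17e-06). BED stood above CQC in both libraries for HEM13 and below it for ROX1.

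In the glycerol and osmotic response list, 6 of 16 genes were higher and 5 lower. GUT2, which oxidises glycerol phosphate, had mRNA levels of 14.6 and 9.28 CPM in BED, against 668 and 767 CPM in CQC. GUT2 footprints were at 39.97 and 27.4 CPM in BED, against 1795 and 1544 CPM in CQC (-5.65 ± 0.33, edgeR adjusted p = 9.1e-14). Among targets of the oxidant sensor Yap1, 6 of 21 were higher and 10 lower. The peroxiredoxin TSA1 had footprint levels of 3156 and 3312 CPM in BED, against 462 and 465 CPM in CQC (2.80 ± 0.19, edgeR adjusted p = 2.79e-12). Among drug efflux transporters, 5 of 20 were higher and 7 lower. In phospholipid synthesis, 8 of 17 were higher and 3 lower, with a summed share of 0.222% and 0.225% of footprint reads in BED, against 0.281% and 0.250% in CQC. OPI1, the repressor of that pathway, had footprint levels of 42.9 and 35.04 CPM in BED, against 301 and 258 CPM in CQC (-2.85 ± 0.26, edgeR adjusted p = 4.68e-10). The biotin list had 1 of 6 higher and 1 lower, and the COS family 0 of 11 higher and 7 lower. The shares called in the glycerol list (37.5% and 31.2%) and among drug efflux transporters (25% and 35%) were not far from those over all genes. With 1 footprint library left out these counts fell to 3 lower COS genes (without BED library 2 or either CQC library), 5 higher phospholipid genes (without BED library 2), and 3 and 2 higher drug efflux genes (without BED library 1 and without CQC library 1).

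By chromosome, the median difference lay between -0.17 and 0.23 in mRNA and between -0.15 and 0.41 in footprints over the 16 nuclear chromosomes. By coding length, among the 1651 genes with 20 reads per library in all 4 groups, the median TE difference was -0.23 below 200 codons, -0.33 from 200 to 400, 0.04 from 400 to 800 and 0.16 above 800.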
